A study of Mus musculus with 4 samples.

Results

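The nuclear genes that code for subunits of the mitochondrial respiratory chain and ATP synthase were examined in the bone marrow of obese mice with and without exercise. Members were taken by gene name: Ndufa, Ndufb, Ndufc, Ndufs and Ndufv names with a digit, the 4 Sdh subunit genes, and names starting with Uqcr, Cox4 to Cox8 or Atp5, without names that contain -ps. This gave 88 gene names of 55401 genes in the tables, with 40 names for complex I, 4 for complex II, 8 for complex III, 19 for complex IV and 17 for complex V. Atp5o was listed under 2 gene identifiers, and ENSMUSG00000022956.11 held all of its signal. Of these names, 83 reached a mean FPKM (fragments per kilobase of transcript, scaled to sequencing depth) of at least 0.1 and were tested. The other 5 were Ndufa11b, Ndufa4l2, Cox7b2, Cox8b and Cox8c, and the last 3 of these were listed at 0 in every library. In GENCODE vM21, 4 of the members are annotated as processed pseudogenes, namely Ndufa11b, Ndufb4c, Ndufs6b and Cox6c2.

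Male C57/B6 mice, 8 weeks old at the start, were made obese with a high-fat diet (HFD) for 6 weeks. The obese mice without exercise (Ob) then stayed on HFD without other intervention, and the obese mice given exercise (Ob + Exe) stayed on HFD and ran on a treadmill at moderate intensity for 1 h a day on 6 days per week over 12 weeks. Each group of the study had 9 mice, RNA-seq of tibial bone marrow covered 2 libraries per group, and no lean group was among them. The labels do not say that replicates came from separate mice, so p values measure the spread between these libraries.

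The respiratory chain takes electrons from NADH at complex I and from succinate at complex II, passes them through ubiquinone to complex III and by cytochrome c to complex IV, and hands them to oxygen. Complexes I, III and IV pump protons across the inner membrane, and ATP synthase, complex V, uses the return flow to make ATP. Most subunits are encoded in the nucleus and imported, and in bone marrow the demand differs widely between cell types, since developing red cells clear their mitochondria at the end of their maturation and neutrophils live mainly on glycolysis.

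The 4 libraries held 44310505 to 53038186 read equivalents on transcripts, a read equivalent being coverage times transcript length divided by the read length of 150 bases. Ob + Exe replicate 1 had the fewest read equivalents and the fewest genes above 0, with 17752 genes against 19291 to 23309 in the other libraries. The labels also name mesenchymal stem cells and fibroblasts, while marrow cell markers were abundant: summed FPKM of 10 erythroid markers was 73500 and 73300 in Ob, against 54200 and 82500 in Ob + Exe, and that of 10 neutrophil markers was 49500 and 28200 in Ob, against 36900 and 66400 in Ob + Exe. Summed FPKM of 8 stromal and fibroblast markers lay between 102 and 165. The 37 transcripts of the mitochondrial genome were listed at 0 in every library and are not used.

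Promoters are shown for 6 members with an unadjusted p under 0.05 in the comparison of the groups, and for Uqcrh, an abundant member whose groups overlapped. RefSeq windows of 300 bases on GRCm38.p6 matched 68 members with 73 windows, and the first 280 bases are printed, from 250 bases before the transcription start to 30 bases after it, 5′ to 3′ on the strand of the gene. Capitals mark matches on either strand to 2 motifs: GCGCNNGCGC, the core of the site of nuclear respiratory factor 1 (Nrf1), and CCGGAAG, the core of the site of ETS factors such as Gabpa. Matches may overlap, as the 2 in Atp5o do.
Atp5k promoter, chr5:108434370-108434649, minus strand: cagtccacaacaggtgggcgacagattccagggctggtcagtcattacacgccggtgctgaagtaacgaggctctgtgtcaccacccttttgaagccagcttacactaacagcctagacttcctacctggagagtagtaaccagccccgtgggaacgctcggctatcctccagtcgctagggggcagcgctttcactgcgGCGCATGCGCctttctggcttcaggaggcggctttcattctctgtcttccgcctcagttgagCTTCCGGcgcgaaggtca
Atp5o promoter, chr16:91931601-91931880, minus strand: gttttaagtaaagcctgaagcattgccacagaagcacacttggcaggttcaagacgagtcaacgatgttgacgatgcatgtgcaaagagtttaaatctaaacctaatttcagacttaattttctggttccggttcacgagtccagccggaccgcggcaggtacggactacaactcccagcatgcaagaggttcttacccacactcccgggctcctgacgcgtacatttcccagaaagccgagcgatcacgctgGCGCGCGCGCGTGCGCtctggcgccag
Ndufa11 promoter, chr17:56717512-56717791, plus strand: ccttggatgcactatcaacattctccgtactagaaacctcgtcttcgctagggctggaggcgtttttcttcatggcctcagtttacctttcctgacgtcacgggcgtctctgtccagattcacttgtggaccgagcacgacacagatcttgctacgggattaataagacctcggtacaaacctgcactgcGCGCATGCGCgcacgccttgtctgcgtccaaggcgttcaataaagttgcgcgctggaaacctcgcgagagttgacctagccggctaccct
Ndufb7 promoter, chr8:83566508-83566787, plus strand: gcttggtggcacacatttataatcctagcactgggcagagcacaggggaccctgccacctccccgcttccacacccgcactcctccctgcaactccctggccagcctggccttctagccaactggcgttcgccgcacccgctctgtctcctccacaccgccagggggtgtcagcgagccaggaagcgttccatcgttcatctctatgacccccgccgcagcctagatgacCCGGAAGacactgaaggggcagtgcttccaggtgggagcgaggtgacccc
Cox6b1 promoter, chr7:30626085-30626364, minus strand: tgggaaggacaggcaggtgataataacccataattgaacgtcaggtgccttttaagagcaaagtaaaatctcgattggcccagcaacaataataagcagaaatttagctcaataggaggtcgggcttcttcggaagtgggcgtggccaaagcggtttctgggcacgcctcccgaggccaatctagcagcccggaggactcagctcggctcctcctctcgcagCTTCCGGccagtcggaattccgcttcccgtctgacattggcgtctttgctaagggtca
Uqcr11 promoter, chr10:80406792-80407071, minus strand: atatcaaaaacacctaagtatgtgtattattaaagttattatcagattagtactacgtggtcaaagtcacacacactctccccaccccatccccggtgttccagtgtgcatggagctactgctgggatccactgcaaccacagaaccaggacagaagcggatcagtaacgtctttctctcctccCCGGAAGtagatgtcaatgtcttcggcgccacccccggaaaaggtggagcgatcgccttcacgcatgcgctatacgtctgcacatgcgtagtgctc
Uqcrh promoter, chr4:116075041-116075320, minus strand: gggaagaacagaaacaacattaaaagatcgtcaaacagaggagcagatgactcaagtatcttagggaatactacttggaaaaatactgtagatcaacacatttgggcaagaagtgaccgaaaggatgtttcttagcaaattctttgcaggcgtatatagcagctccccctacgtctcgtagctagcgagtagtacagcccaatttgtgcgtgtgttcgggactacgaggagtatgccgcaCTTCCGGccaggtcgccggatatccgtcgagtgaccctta
The Nrf1-type motif was in 19 of the 73 windows (26.0%) and in 6.23% of all 32851 windows, and the ETS-type motif was in 17 (23.3%) and in 8.86%. Another motif, AAGATGG, the core of the site of Yy1, was in 11 windows (15.1%) and in 6.34% of all windows. Each motif was read on both strands. A match describes the letters only. Atp5k held a match to both printed motifs, with the Nrf1-type match starting 50 bases before the transcription start. Of the 6 promoters of members with an unadjusted p under 0.05, 3 held the Nrf1-type motif, 4 the ETS-type motif and 0 the Yy1-type motif, and Uqcrh carried an ETS-type match 10 bases before its start.

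Most members differed between the groups by less than 2-fold, and every member with an unadjusted p under 0.05 was lower in Ob + Exe. Levels are FPKM summed over the transcripts of a gene and scaled between libraries by median-of-ratios factors. The log2 fold change of log2(FPKM + 0.1), Ob + Exe against Ob, was lower than 0 in 47 of the 83 tested members and higher in 36. Its median was -0.11 over the members, -0.02 over all 18596 genes tested, -0.08 over the 77 members that averaged 10 FPKM or more and 0.05 over all 5820 genes at that level. Summed over all members, FPKM was 6275 and 6213 in Ob, against 5829 and 6013 in Ob + Exe. In bulk marrow, fewer cells of a type and less RNA per cell cannot be told apart.

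The thresholds of the study were a log2 fold change beyond 1 in size and p under 0.05 before adjustment. With them, 4 members were called lower in Ob + Exe (4.82%) and 0 higher. Across all genes tested, 2.75% were called lower and 0.995% higher. The 4 members were Uqcrq, Atp5k, Ndufb4c and Ndufs6b, and the last 2 are processed pseudogenes by annotation. An unadjusted p under 0.05 was reached by 9 members, all lower (10.8%), against 3.48% lower and 1.56% higher among all genes. Ndufs6b passed the filter on low values only through Ob, where it is high. Among the 82 members and 16539 genes with a mean of at least 0.1 FPKM in each group, 3 members (3.66%) and 1.44% of genes were called lower, and 8 members (9.76%) and 2.27% of genes were lower with an unadjusted p under 0.05. After Benjamini-Hochberg adjustment of the limma p values, no gene passed 0.05: the members' adjusted p values lay between 0.939 and 0.999, the lowest of any gene was 0.738, and 939 genes had an unadjusted p under 0.05. Both counts of lower members, called or with an unadjusted p under 0.05, fell when either Ob library was left out. They rose without Ob + Exe replicate 2, where some members also passed on the higher side. Over all genes, with both directions together, both counts rose without that library too, and without Ob + Exe replicate 1. Neither count of lower members rose without Ob + Exe replicate 1. Without Ob replicate 1, the called count over all genes rose as well. Such a fit leaves 1 library in a group, and whether the counts rest on single libraries was not tested.

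In 27 members (32.5%) the exercised libraries were both lower than each Ob library, and in 10 (12.0%) both were higher. Over all genes these shares were 18.4% and 14.3%. The split depended on the scaling, with 36 below and 5 above for FPKM as deposited, and 33 below and 7 above after quantile normalization. The shares of all genes were not taken under these 2 scalings. For FPKM as deposited, the median log2 fold change over all genes was itself lower, at -0.101. Ob + Exe replicate 1 was the lowest of the 4 libraries in 36 tested members (43.4%), against 32% of all genes. Without it the median was -0.05 over the members and -0.025 over all genes, and its part in the result was not tested.

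**Figure D1:**
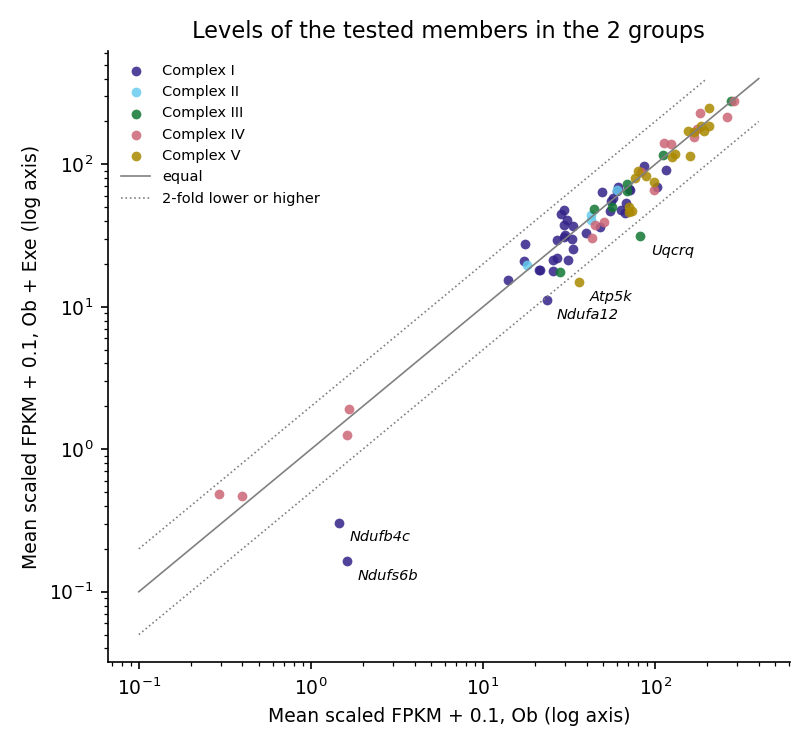
Mean scaled FPKM + 0.1 of the 83 tested members in Ob (x axis) and Ob + Exe (y axis), both on log axes, 1 point per gene and coloured by complex. Most points lie between the dotted lines of a 2-fold difference, with Uqcrq, Atp5k, Ndufa12, Ndufb4c and Ndufs6b below them.

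Complex I, which oxidizes NADH, had 38 tested members, 22 lower and 16 higher, with a median log2 fold change of -0.13. Both Ob + Exe libraries lay below Ob in 16 of the 38 and above Ob in 6, against 18.4% and 14.3% of all genes. Summed FPKM was 1594 and 1599 in Ob, against 1567 and 1455 in Ob + Exe. An unadjusted p under 0.05 was found for 4 of the 38 members, all lower, against 3.48% lower and 1.56% higher among all genes. They were Ndufb7, Ndufa11 and the processed pseudogenes Ndufb4c and Ndufs6b. Ndufs6b, also among the 16, passed the filter on low values only through Ob, where it is high. With a minimum mean FPKM of 1, which left out both pseudogenes, the median was -0.091.

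Ndufb7, an accessory subunit of the membrane arm at chr8:83566671-83571626, measured 101 and 104 FPKM in Ob, against 75.6 and 63.4 in Ob + Exe. The groups did not overlap, and the log2 fold change was -0.56 (SE 0.202, limma adjusted p = 0.96). Ndufa11, another membrane-arm subunit at chr17:56717767-56722141, measured 67.7 and 64.9 FPKM in Ob, against 41.7 and 49.2 in Ob + Exe. The exercised libraries were again both below, with a log2 fold change of -0.55 (SE 0.201, limma adjusted p = 0.96). Ndufa11 overlaps Vmac in the annotation, and without strand their reads cannot be told apart. These 2 genes, and further on Uqcr11, Atp5o, Ndufs4, Ndufs6 and Ndufb4, were singled out after their values were seen.

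The largest fitted fold changes of complex I came from the copies Ndufs6b and Ndufb4c, at chr7:81161397-81161744 and chr15:73809507-73809896. Ndufs6b measured 2.41 and 0.628 FPKM in Ob, or 57 and 15 read equivalents, and 0 and 0.129 in Ob + Exe, or 0 and 2 read equivalents. Its fitted log2 fold change was -3.16 (SE 0.881, limma adjusted p = 0.96), a size that ran from -5.06 to -1.15 with the settings tried and is no bound. Ndufb4c measured 0.794 and 1.92 FPKM in Ob, against 0.41 and 0 in Ob + Exe, with 21, 50, 9 and 0 read equivalents. Its fitted log2 fold change was -2.57 (SE 0.963, limma adjusted p = 0.96). Reads of such copies can also come from the parent genes, and parent Ndufs6 measured 18.9 and 15.4 FPKM in Ob, against 22.5 and 19.0 in Ob + Exe. Parent Ndufb4 measured 27.7 and 26.1 FPKM in Ob, against 21.5 and 22.2 in Ob + Exe. The parents did not pass the test. With limma-voom on read equivalents neither copy was called. Without Ob replicate 1, Ob replicate 2 or Ob + Exe replicate 2, Ndufb4c was no longer called, nor without a filter, without the intensity trend or with a pseudocount of 1 or 0.01, and Ndufs6b lost its call without Ob replicate 1 or Ob + Exe replicate 1.

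Ndufa12, an accessory subunit of the matrix arm, had the lowest log2 fold change among complex I members with a mean of at least 1 FPKM. It measured 21.0 and 25.6 FPKM in Ob, against 3.47 and 18.6 in Ob + Exe, so 1 library set most of the difference. The log2 fold change was -1.51 (SE 0.737, limma adjusted p = 0.96), and -0.33 without Ob + Exe replicate 1. It was called with limma-voom on read equivalents (log2 fold change -1.16) and with the replicate number as a block, straight or crossed. Without Ob + Exe replicate 2, which left the lowest library alone in its group, the log2 fold change was -2.72.

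Ndufb2, a small membrane-arm subunit, stood at the other end with 19.2 and 15.7 FPKM in Ob, against 22.1 and 33.4 in Ob + Exe. Both exercised libraries were above Ob, and the log2 fold change of 0.64 did not pass the test (SE 0.279, limma adjusted p = 0.96). The most abundant complex I members were Ndufa4, a subunit now counted by many with complex IV, and Ndufs7, which holds the last iron-sulfur cluster before ubiquinone. Ndufa4 measured 123 and 108 FPKM in Ob, against 75.5 and 106 in Ob + Exe (log2 fold change -0.37, SE 0.243). Ndufs7 measured 81.2 and 91.1 FPKM in Ob, against 111 and 83.4 in Ob + Exe (log2 fold change 0.16, SE 0.228), with overlapping groups. Counting Ndufa4 and Ndufa4l2 with complex IV gave a median of -0.11 for complex I.

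Complex II, succinate dehydrogenase, showed no member past the test. Its 4 genes had log2 fold changes from -0.08 to 0.15, with a median of 0.07 that was -0.01 for FPKM as deposited. Summed FPKM was 169.5 and 154.7 in Ob, against 156.2 and 184.6 in Ob + Exe. Of the 4 members, 0 had both exercised libraries below Ob and 1 above, against 18.4% and 14.3% of all genes. The flavoprotein gene Sdha measured 45 and 39.8 FPKM in Ob, against 35.7 and 45.1 in Ob + Exe. Its groups overlapped. The iron-sulfur subunit gene Sdhb measured 49.2 and 35.4 FPKM in Ob, against 31.6 and 57.0 in Ob + Exe, the widest replicate spread of the complex. Sdhd, a membrane anchor, measured 58.5 and 60.7 FPKM in Ob, against 70.9 and 61.6 in Ob + Exe, with both exercised libraries above Ob by a small margin (log2 fold change 0.15, 95% interval -0.34 to 0.64).

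Complex III, which passes electrons from ubiquinol to cytochrome c, held the member with the lowest p value, Uqcrq. Of 8 tested members 4 were lower and 4 higher. The log2 fold changes had a median of -0.03. Of the 8 members, 4 had both exercised libraries below Ob and 0 above, against 18.4% and 14.3% of all genes. Uqcrq, a small subunit in the membrane part at chr11:53427922-53430831, measured 65.7 and 98.3 FPKM in Ob, against 26.9 and 35.8 in Ob + Exe. The exercised libraries were both well below Ob. The mean was 82.0 ± 23.0 FPKM in Ob and 31.4 ± 6.29 in Ob + Exe (SD, n = 2 each). The log2 fold change was -1.37 (SE 0.281, 95% interval -2.06 to -0.68, limma adjusted p = 0.939).

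The size of the Uqcrq difference depended on how reads were assigned to transcripts. Its 405-base coding transcript measured 38.4 and 83.2 FPKM in Ob, against 0 and 4.84 in Ob + Exe, while its 1521-base coding transcript measured 24.7 and 13.3 in Ob, against 23.5 and 27.9 in Ob + Exe. Summed over transcripts, Uqcrq had 3690 and 3641 read equivalents in Ob, against 2186 and 2496 in Ob + Exe. On read equivalents, limma-voom gave a log2 fold change of -0.43, and Uqcrq was not called. A read placed on a shorter transcript adds more FPKM than the same read placed on a longer one. Without Ob replicate 2, the log2 fold change was -1.09 and the unadjusted limma p passed 0.05 no longer.

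Uqcr11, the smallest subunit of the complex, measured 29.0 and 26.5 FPKM in Ob, against 13.7 and 21.3 in Ob + Exe. The groups did not overlap (log2 fold change -0.69, SE 0.275, limma adjusted p = 0.96). In the 2 most abundant members the groups overlapped. Uqcrh, the hinge protein that helps cytochrome c dock, measured 254 and 294 FPKM in Ob, against 294 and 258 in Ob + Exe, and its 95% interval for the log2 fold change was -0.53 to 0.55. Uqcr10, a small membrane subunit, measured 112 and 109 FPKM in Ob, against 140 and 92.1 in Ob + Exe. The core subunit gene Uqcrc2 had the largest log2 fold change of the complex at 0.14 (SE 0.219), with 49.2 and 39.1 FPKM in Ob, against 51.6 and 45.3 in Ob + Exe.

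**Figure D2:**
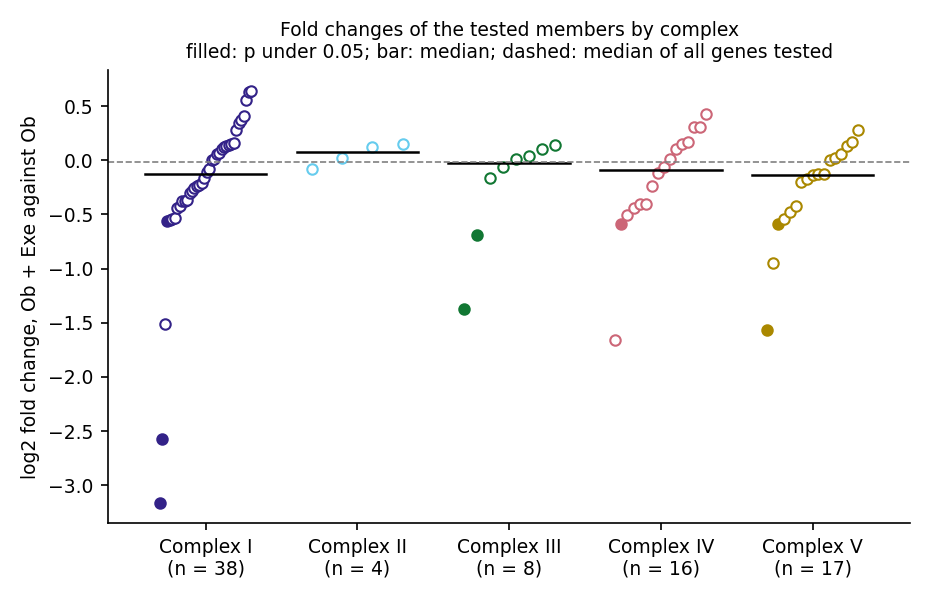
Log2 fold change, Ob + Exe against Ob, of the tested members by complex, 1 circle per gene in order of size and filled where the unadjusted p was under 0.05. Black bars are medians and the dashed line is the median of all genes tested (-0.02); all 9 filled circles lie below it.

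Complex IV, cytochrome c oxidase, had 16 tested members with 9 lower and 7 higher and a median log2 fold change of -0.09. Its summed FPKM was 1614 and 1657 in Ob, against 1582 and 1612 in Ob + Exe. Of the 16 members, 3 had both exercised libraries below Ob and 2 above, against 18.4% and 14.3% of all genes. Cox6b1, a subunit on the intermembrane side at chr7:30616861-30626151, was the member with an unadjusted p under 0.05. It measured 98.3 and 99.5 FPKM in Ob, against 73.4 and 58.4 in Ob + Exe, with both Ob values above both exercised ones. The log2 fold change was -0.59 (SE 0.211, limma adjusted p = 0.96), and limma-voom on read equivalents gave -0.62.

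Cox4i1, the largest nuclear-encoded subunit, was the most abundant member of all, with 278 and 300 FPKM in Ob, against 307 and 250 in Ob + Exe. Its 95% interval for the log2 fold change, -0.61 to 0.49, covered 0. Cox6a1, a regulatory subunit, measured 273 and 248 FPKM in Ob, against 128 and 301 in Ob + Exe, so the 2 exercised libraries enclosed the Ob values. Cox7c, a small membrane subunit, measured 166 and 199 FPKM in Ob, against 267 and 192 in Ob + Exe. Its groups overlapped (log2 fold change 0.31, SE 0.253).

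The heart and skeletal muscle forms of complex IV subunits were at or near 0 in marrow. Cox6a2 measured 1.95 and 1.08 FPKM in Ob, against 2.32 and 0 in Ob + Exe, at most 1.78% of the sum with Cox6a1. It had the lowest log2 fold change of the complex at -1.66 (SE 1.46), and its groups overlapped. Cox7a1 was at most 0.906% of the sum with Cox7a2, Cox8b was listed at 0 beside Cox8a at 143 to 170 FPKM, and the low-oxygen form Cox4i2 was at most 0.293% of the sum with Cox4i1. Ndufa4l2, induced at low oxygen, was above 0 in 1 library, at 0.172% of the sum with Ndufa4. Skeletal muscle markers, 11 genes, summed to 12.3 and 7.98 FPKM in Ob, against 16.9 and 16.7 in Ob + Exe.

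Cox6b2, known as the testis form of Cox6b1, was an exception with 35.6 and 49.5 FPKM in Ob, against 36.8 and 23.5 in Ob + Exe. It made up 26.6% and 33.2% of the sum with Cox6b1 in Ob, against 33.4% and 28.7% in Ob + Exe. These shares overlapped, with a p of 0.667 by the two-sided exact permutation test, which cannot go below 0.333 with 2 against 2 libraries. Cox7a2, the widespread form, measured 89.5 and 76.5 FPKM in Ob, against 84.6 and 93.2 in Ob + Exe.

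**Figure D3:**
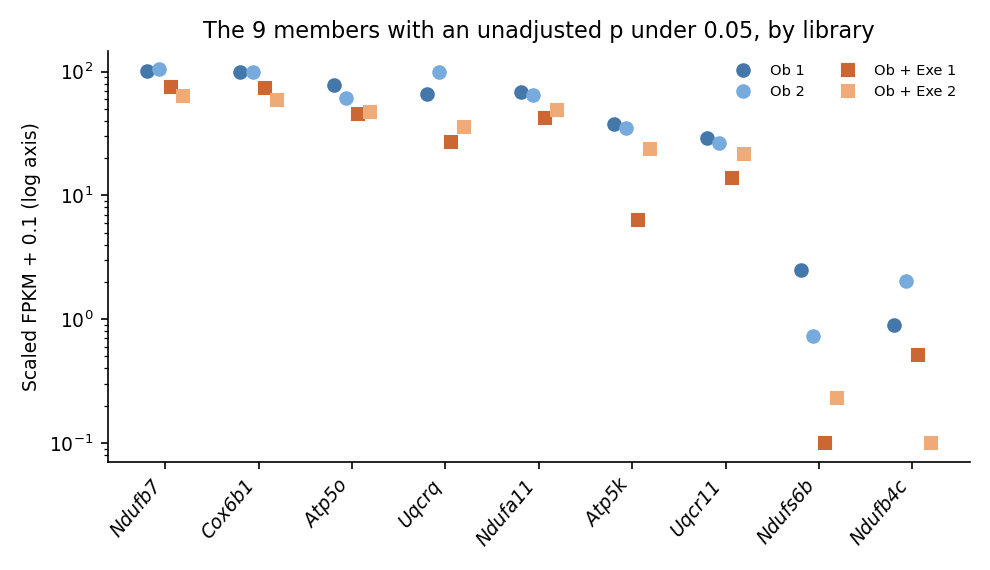
Scaled FPKM + 0.1 on a log axis of the 9 members with an unadjusted p under 0.05, by library, circles for Ob and squares for Ob + Exe. Every square lies below both circles of its gene, and Ndufs6b and Ndufb4c are near 1 FPKM or lower in most libraries.

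Complex V, ATP synthase, had 17 tested members, 11 lower and 6 higher, and a median log2 fold change of -0.14, close to that of complex I. Summed FPKM was 2184 and 2054 in Ob, against 1818 and 2113 in Ob + Exe, so Ob + Exe replicate 2 lay between the Ob libraries. Ob + Exe replicate 1 was the lowest library in 10 of the 17 (58.8%), and without it the median was -0.01. Without Ob + Exe replicate 2 it was -0.34 and without Ob replicate 2 it was -0.24. Of the 17 members, 4 had both exercised libraries below Ob and 1 above, against 18.4% and 14.3% of all genes.

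Atp5k, subunit e of the membrane part at chr5:108433244-108434448, measured 37.4 and 34.8 FPKM in Ob, against 6.19 and 23.4 in Ob + Exe. Both exercised libraries were below Ob, and they differed from each other more than the lower Ob value differed from the higher exercised one on the log scale. The log2 fold change was -1.57 (SE 0.595, 95% interval -3.04 to -0.10, limma adjusted p = 0.96). Read equivalents gave the same direction, with 1000 and 939 in Ob, against 175 and 503 in Ob + Exe, and limma-voom gave -1.51, again called. The log2 fold change was -0.63 without Ob + Exe replicate 1 and -2.54 without Ob + Exe replicate 2. It was not called without Ob + Exe replicate 1 or without either Ob library, nor without a filter, without the intensity trend or with a pseudocount of 0.01.

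Atp5o, the stalk subunit that holds the catalytic head, at chr16:91925214-91931687, measured 78.4 and 61.6 FPKM in Ob, against 45.3 and 47.1 in Ob + Exe. Its groups did not overlap (log2 fold change -0.59, SE 0.214, limma adjusted p = 0.96), and limma-voom gave -0.62. The catalytic subunit gene Atp5b measured 230 and 180 FPKM in Ob, against 159 and 216 in Ob + Exe, with overlapping groups. Atp5h, subunit d of the stalk, had the largest log2 fold change of the complex at 0.28 (SE 0.216), with 213 and 197 FPKM in Ob, against 274 and 226 in Ob + Exe.

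Subunit c of the rotor is encoded by Atp5g1, Atp5g2 and Atp5g3, which give the same mature protein with different import sequences. Their summed FPKM was 344 and 387 in Ob, against 254 and 328 in Ob + Exe, lower in both exercised libraries. As a share of all read equivalents the sum was 0.0311% and 0.0357% in Ob, against 0.0335% and 0.0272% in Ob + Exe, and the groups overlapped. Atp5g3 was the main form, at 52.2% and 53.5% of the sum in Ob, against 57.8% and 58.8% in Ob + Exe. These shares did not overlap, and the exact permutation p of 0.333 is the smallest the design allows. Computed from read equivalents, its shares were 53.6% and 55.7% in Ob, against 42.0% and 60.3% in Ob + Exe, and the order was lost. In FPKM, Atp5g3 measured 180 and 207 in Ob, against 147 and 193 in Ob + Exe. Atp5g2 measured 101 and 95.7 FPKM in Ob, against 88.0 and 61.3 in Ob + Exe, both exercised libraries below Ob (log2 fold change -0.42, SE 0.243).

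Atp5g1 showed the same dependence on transcripts as Uqcrq, in a single library. It measured 62.8 and 84.2 FPKM in Ob, against 19.2 and 73.9 in Ob + Exe (log2 fold change -0.95, SE 0.613, limma adjusted p = 0.96). In Ob + Exe replicate 1, 5246 of its 5319 read equivalents were on a 4715-base transcript, and the 596-base transcript that held 61.2, 83.3 and 72.8 FPKM in the other libraries was listed at 0. By read equivalents its share of the 3 genes was 18.1% and 20.0% in Ob, against 35.8% and 21.0% in Ob + Exe. Limma-voom turned the direction to 0.42.

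**Figure D4:**
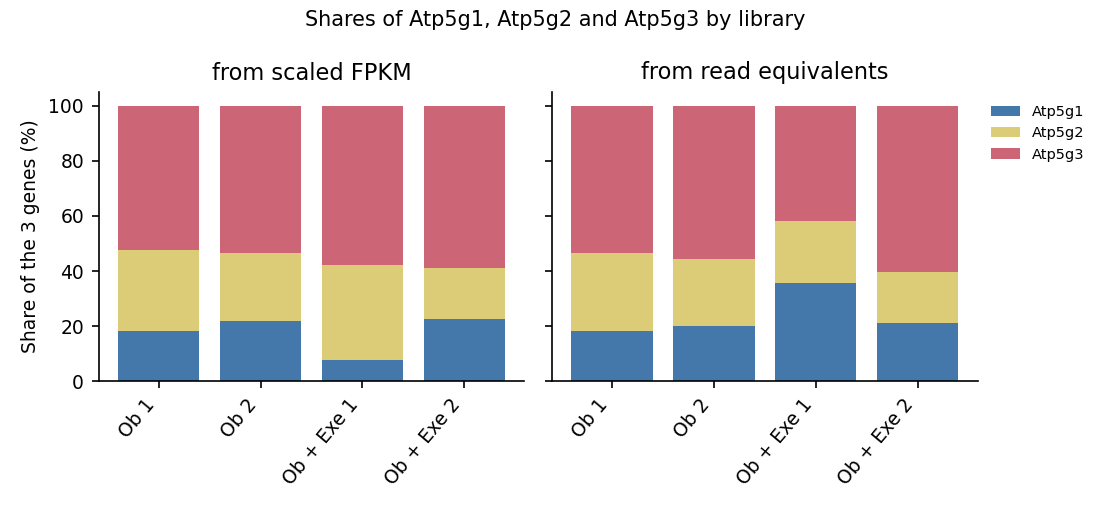
Shares of Atp5g1, Atp5g2 and Atp5g3 in their sum (%) by library, from scaled FPKM (left) and from read equivalents (right). The share of Atp5g1 in Ob + Exe replicate 1 is 7.56% from FPKM and 35.8% from read equivalents.

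Among the 78 members with values in every library, 68 had the same leading transcript in all 4 libraries and 10 did not: Ndufa12, Ndufs1, Ndufs4, Ndufs6, Ndufs8, Uqcrq, Cox6b2, Atp5g1, Atp5h and Atp5k. Over the 68, 0 members were called and 5 had an unadjusted p under 0.05, all lower, against 3.48% lower among all genes. The median log2 fold change of the 68 was -0.07. Over the 10, 2 were called, Uqcrq and Atp5k. Ndufb4c and Ndufs6b, the other called members, were in neither set, since each was at 0 in a library. In Ob + Exe replicate 1, all Ndufa12 signal was on a 1386-base transcript annotated for nonsense-mediated decay, with 283 read equivalents, while its 566-base coding transcript led in FPKM in the other 3. Ndufs4, a matrix-arm subunit, measured 29.1 and 29.5 FPKM in Ob, against 62.1 and 33.2 in Ob + Exe, and 49.8 of the 62.1 were on a 571-base transcript annotated the same way. The leading coding transcript of Ndufs4, 1698 bases long, was at 17.3 and 25.3 FPKM in Ob, against 10.7 and 24.6 in Ob + Exe.

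**Figure D5:**
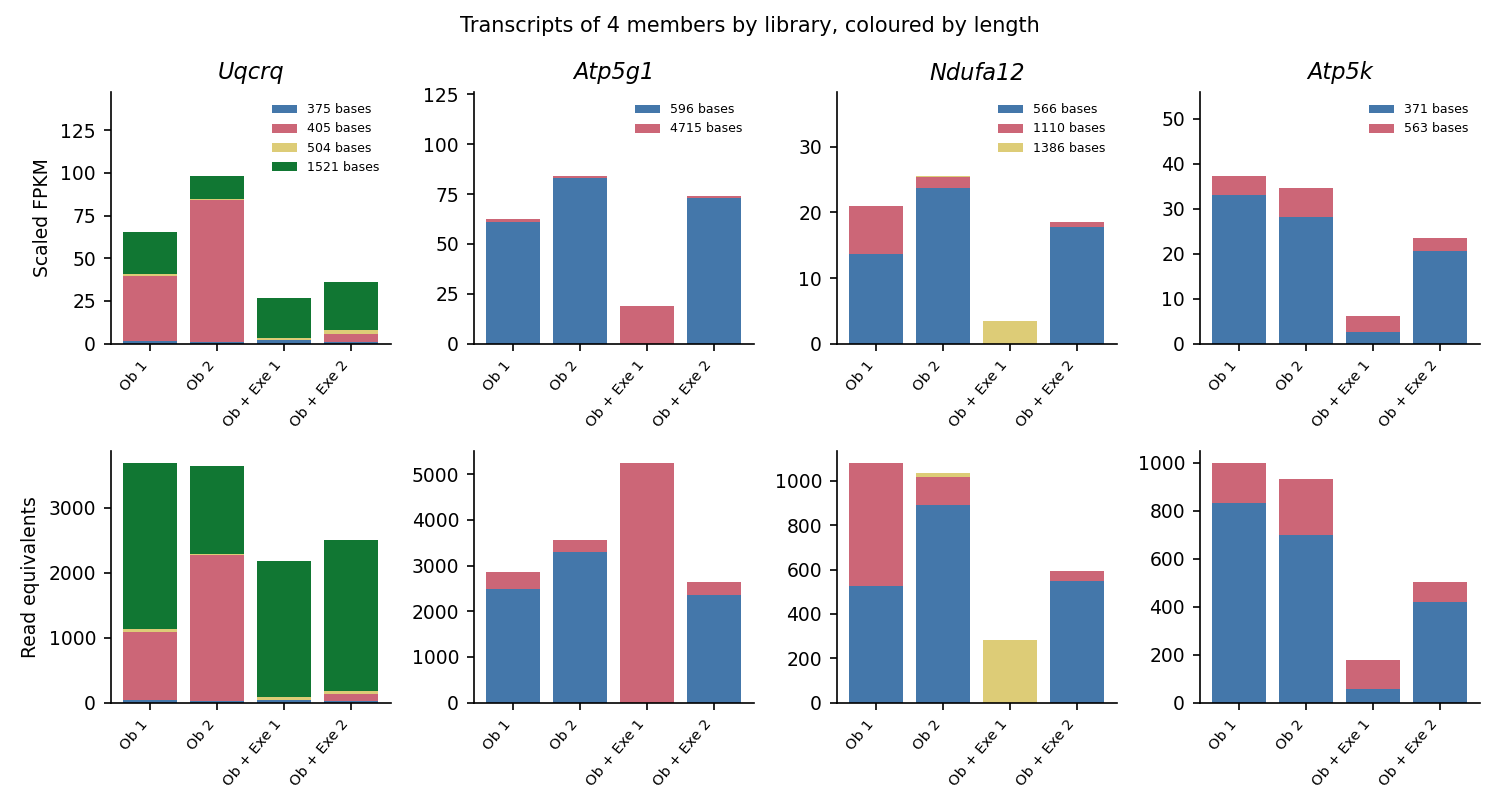
Scaled FPKM (top) and read equivalents (bottom) of the transcripts of Uqcrq, Atp5g1, Ndufa12 and Atp5k by library, stacked and coloured by transcript length. The 405-base transcript of Uqcrq is at 0 and 4.84 FPKM in Ob + Exe, and the 4715-base transcript of Atp5g1 holds 5246 read equivalents in Ob + Exe replicate 1.

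The genes around the chain were compared in the same fit. Of 50 tested assembly factors, 22 were lower and 28 higher, and the median log2 fold change was 0.07. In limma, 0 of them had an unadjusted p under 0.05. Of 13 genes of the tricarboxylic acid cycle, 9 were lower and 4 higher, 0 with an unadjusted p under 0.05. In 24 other respiratory chain genes, 12 were lower and 12 higher, again 0 with an unadjusted p under 0.05. Without Ob + Exe replicate 1, some assembly factors and some of these 24 genes passed 0.05, and the count over all genes rose too. Cyc1, the cytochrome c1 of complex III, measured 45.1 and 46.0 FPKM in Ob, against 36.0 and 46.2 in Ob + Exe. Cycs, cytochrome c itself, measured 10.7 and 11.7 FPKM in Ob, against 13.4 and 17.4 in Ob + Exe, above Ob in both libraries (log2 fold change 0.45, SE 0.246).

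Regulators of mitochondrial biogenesis gave 9 lower and 9 higher of 18 tested, 0 with an unadjusted p under 0.05. That count rose without Ob + Exe replicate 2, as did the count over all genes. The coactivator Ppargc1a, induced by exercise in muscle, was not tested, with 0.0258 and 0.038 FPKM in Ob, against 0.201 and 0 in Ob + Exe. Its relative Ppargc1b measured 0.284 and 0.467 FPKM in Ob, against 0.153 and 0.23 in Ob + Exe. Nrf1, whose motif was searched in the promoters, measured 20.6 and 16.9 FPKM in Ob, against 22.4 and 26.5 in Ob + Exe (log2 fold change 0.38, SE 0.229). Its exercised libraries were both above Ob, short of the test. Gabpa, an ETS factor, measured 13.6 and 15.8 FPKM in Ob, against 8.05 and 15.9 in Ob + Exe. Esrra, a nuclear receptor that acts on these genes, measured 16.5 and 24.4 FPKM in Ob, against 12.5 and 16.8 in Ob + Exe. Tfam, which packs mitochondrial DNA and helps start its transcription, measured 10.7 and 10.5 FPKM in Ob, against 8.13 and 11.9 in Ob + Exe. In all of these but Nrf1 and Ppargc1b the groups overlapped.

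The mitochondrial ribosome, which translates the subunits encoded in mitochondrial DNA, had 50 of 78 tested genes lower and 28 higher, with a median log2 fold change of -0.09. An unadjusted p under 0.05 was reached by 7, all lower (8.97%, against 3.48% of all genes), and 2 were called lower (2.56%, against 2.75% of all genes). Mrpl54 measured 17.0 and 20.0 FPKM in Ob, against 11.5 and 6.25 in Ob + Exe (log2 fold change -1.11, SE 0.345, limma adjusted p = 0.96). Mrps34 measured 11.4 and 23.8 FPKM in Ob, against 6.05 and 9.06 in Ob + Exe (log2 fold change -1.14, SE 0.419, limma adjusted p = 0.96). The count of 7 fell when either Ob library was left out and rose without Ob + Exe replicate 2. The count over all genes moved the same way.

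Cell markers also differed between the libraries, in both directions. Over all genes tested, 2.75% were called lower and 0.995% higher, and both exercised libraries lay below Ob in 18.4%. All 7 megakaryocyte and platelet markers were lower in Ob + Exe, 3 of them called, with summed FPKM of 480 and 344 in Ob, against 383 and 143 in Ob + Exe. Of 8 B-lineage markers 7 were lower, 2 of them called, with sums of 198 and 206 in Ob, against 156 and 126 in Ob + Exe. All 6 tested osteoblast markers were lower, 2 of them called, and all 5 endothelial markers were below Ob in both exercised libraries, with 0 called. The called osteoblast marker Bglap2 was low, at 1.12 and 3.41 FPKM in Ob, against 0 and 0.724 in Ob + Exe. Endothelial markers other than Pecam1 measured at most 1.34 FPKM. Higher in Ob + Exe were 9 of 10 neutrophil markers (median log2 fold change 0.32, 0 called) and all 8 tested skeletal muscle markers (median 0.66, 1 called). Monocyte and macrophage markers were lower in 6 of 8, T and NK markers higher in 5 of 8, stromal and fibroblast markers higher in 5 of 8 and adipocyte markers higher in 2 of 4 tested, with 0 called in these lists. Of 10 erythroid markers 7 were lower, and Ob + Exe replicate 1 was the lowest library in 6 of the 10. It was also the lowest in 7 of 8 proliferation genes, whose sum was 930 and 970 FPKM in Ob, against 750 and 1010 in Ob + Exe. The part of cell makeup in the levels of the subunit genes was not tested.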

How the data were processed

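Bone marrow RNA was measured in 2 Ob and 2 Ob + Exe libraries, grouped by GEO's labels. Per the study's methods, poly-A libraries (NEBNext Ultra, strand not stated) were sequenced as 150-base pairs. The authors trimmed reads with fastp, removed rRNA reads, aligned to GRCm38 using HISAT2, filtered using SAMtools and quantified transcripts with StringTie. Versions of these tools are not given in the sources used here. The authors deposited the FPKM and the coverage (a signal not normalized for depth) of 142604 transcripts per library.

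Gene values were sums of transcript FPKM, scaled by median-of-ratios factors (0.94 to 1.04) and kept at a mean FPKM of at least 0.1. Values of log2(FPKM + 0.1) entered limma 3.58.1 (R 4.3.3; lmFit and eBayes with an intensity trend), 2 residual and 3.79 prior degrees of freedom. Fold changes on this scale understate those of low genes. Reads of near-identical copies, and of overlapping genes (31 of the 83 tested members overlap another gene), are uncertain. The 95% interval of the log2 fold change had a half-width of 0.466 to 1.82 (median 0.551) in members that averaged 10 FPKM or more. The limma fit was tested on simulated data with changes larger than those of most members, and smaller changes were not simulated.

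Named genes were those called, the 2 most abundant and the members with the largest and smallest fold change (mean FPKM of at least 1) in each complex, the isoform genes and 8 genes of the other lists. The members and lists were chosen with earlier results of these data known. The labels do not tie same-numbered replicates to a shared mouse, batch or day, so the numbers were not treated as pairs. Alternatives covered filter, pseudocount, scaling, read equivalents (limma-voom with TMM factors), trend, block and leaving out each library. Software was Python 3.11.15, pandas 2.3.3 and matplotlib 3.10.9.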

Additional observations from a re-analysis of the deposited data

Results flagged for a closer look

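Ndufb1-ps, left out because its name contains -ps, was as abundant as many of the subunit genes and stood outside the comparison. It measured 62.6 and 64.0 FPKM in Ob, against 79.9 and 78.2 in Ob + Exe, both exercised libraries above Ob. Its log2 fold change was 0.32 (SE 0.188, limma adjusted p = 0.96), so it did not pass the test. The other names of this kind were at most 4.75 FPKM.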

How the results depend on the processing

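No adjusted limma p of a member was under 0.05 under any of the 14 alternatives. Against 4 members called lower, 2 were called with a minimum mean FPKM of 1, no filter, no trend, a pseudocount of 0.01 or limma-voom on read equivalents, 0 among members with the same leading transcript, and 1 to 8 when a library was left out (0 to 2 called higher). Against 9 with an unadjusted p under 0.05, 2 were found without the trend, 5 with limma-voom, 5 among members with the same leading transcript, and 1 to 15 (and 0 to 3 higher) when a library was left out. Members with both exercised libraries above Ob numbered 5 without scaling, where the share of all genes was not taken. Deviations of same-numbered replicates from their group means had a correlation of -0.106 over all genes tested and -0.235 over those that averaged 1 FPKM or more. The replicate block gave 743 called genes of all (696 without it), 18 with an adjusted p under 0.05 (0 without it), and 6 members lower at an unadjusted p under 0.05. A crossed replicate block gave 802 called genes of all, 11 with an adjusted p under 0.05. With it, 17 members were lower and 2 higher at an unadjusted p under 0.05. Over all 18596 genes, 1518 had an unadjusted p under 0.05 with the crossed block, 811 with the replicate block and 939 with neither. The crossed block was chosen after seeing the data, as were the same-transcript, each-group minimum and read-equivalent share and sum alternatives.

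The median log2 fold change of complex I was -0.091 with a minimum FPKM of 1 or a mean of at least 10, -0.218 without scaling, -0.194 after quantile normalization, -0.106 with the same leading transcript or with Ndufa4 moved, and -0.159 to -0.097 when a library was left out. For complex III it was -0.114 without scaling, -0.057 after quantile normalization, -0.056 with limma-voom, 0.01 with the same leading transcript and -0.105 to -0.044 when a library was left out. Leaving out a library gave -0.127 to 0.148 for complex II, -0.296 to -0.009 for complex IV, -0.344 to -0.009 for complex V and -0.175 to -0.049 for all members, which stood at -0.193 without scaling. FPKM as deposited had a median of -0.101 over all genes.

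Signs of single genes turned as follows. Atp5g1 was 0.42 with limma-voom. Cox4i2 was 0.02 with a pseudocount of 1. Sdhb was -0.06 without scaling, -0.05 after quantile normalization and -0.01 with limma-voom. Without scaling Uqcr10 was -0.05 and Uqcrh -0.08, and Uqcrh was -0.02 with limma-voom. When a library was left out, log2 fold changes ran from -0.37 to 0.07 for Atp5b, -1.93 to 0.01 for Atp5g1, -0.22 to 0.08 for Cox4i1, -2.0 to 1.08 for Cox4i2, -1.03 to 0.20 for Cox6a1, -3.96 to 0.63 for Cox6a2, -1.14 to 2.0 for Cox7a1, -0.02 to 0.21 for Cox7a2, -0.06 to 0.35 for Ndufs7, -0.26 to 0.08 for Sdha, -0.41 to 0.44 for Sdhb, -0.28 to 0.32 for Uqcr10, -0.04 to 0.30 for Uqcrc2 and -0.10 to 0.11 for Uqcrh. The cause was not tested. With 2 libraries a group, differences smaller than the interval half-widths given with the methods were not detectable.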
